A study of Mus musculus with 2 samples.

Results

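The expression of 6 genes that mark rare neurons of the mouse nose was followed cell by cell in 2 single-cell RNA-seq libraries: Gucy1b2 (ENSMUSG00000021933), Trpc2 (ENSMUSG00000100254), Gucy2d (ENSMUSG00000074003), Car2 (ENSMUSG00000027562), Cnga3 (ENSMUSG00000026114) and Emx1 (ENSMUSG00000033726). They were chosen by symbol, and all 6 are among the 32534 features that both count matrices list. The series holds dissociated olfactory epithelium of female mice, run on droplets with a 3′ kit that counts each captured molecule once, as a unique molecular identifier (UMI). The first library has the genotype Tg(Or8a1-OR1A1,-MAPT/mCherry)D736Feins/+, on the line Tg(Or8a1-OR1A1,-MAPT/mCherry)D736Feins/J, at 9 weeks of age. Its transgene carries the human odorant receptor OR1A1. The other library is labelled WT, at 8 weeks, and comes from 10G4-V2.2-#7/Jax crossed with Bl6/129SF1/J; how many mice each library holds is not stated in the labels, and transgene, strain background, age and library cannot be told apart. With 1 library per group there is no replicate and no test, and every interval below is a 95% interval for counting error only.

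Most olfactory sensory neurons express 1 odorant receptor gene and pass its signal through the G protein subunit Gnal, the adenylyl cyclase Adcy3 and a cAMP-gated channel built from Cnga2, Cnga4 and Cngb1. A few neurons in the same epithelium work differently. Some carry Gucy1b2, a beta subunit of soluble guanylate cyclase, together with Trpc2, the ion channel best known from the vomeronasal organ, and have been linked to sensing low oxygen. Others carry Gucy2d, a membrane guanylate cyclase also called GC-D, with the cGMP-gated channel subunit Cnga3 and the carbonic anhydrase Car2, and respond to carbon dioxide and peptide cues. Emx1 encodes a homeodomain transcription factor better known from the developing forebrain.

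Kept were 1745 transgenic and 1117 wild-type cells, 2862 in all, with a median of 14440 and 12983 UMIs per cell. Cell classes were rebuilt from marker genes after clustering without the 6 genes and without receptor genes, and a class name ending in "-like" rests on those markers. Of the kept cells, 1068 were mature olfactory sensory neuron-like (mature OSN-like), and 943 fell in named classes outside the neuronal lineage. The doublet caller marked 4 and 2 cells, and 1 kept barcode occurs in both libraries. RNA outside cells, read from barcodes under 100 UMIs, held Gucy1b2 at 4.67 CPM (counts per 1000000 UMIs) in transgenic and 3.47 in wild-type material, Emx1 at 1.87 and 3.03, Gucy2d at 0.933 and 0, and Trpc2 and Cnga3 at 0 in both. Free Car2 was higher, at 42.9 and 51.6 CPM.

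Promoter windows from RefSeq (GRCm38.p6, 250 bases before to 50 after the start site) matched 5 of the 6 genes, all but Car2. Those of Gucy1b2 and Emx1, which were detected in the same cells, and of Gucy2d, the defining gene of the other neuron type, are shown 5′ to 3′. Capitals mark TAAT, the first bases of the homeodomain core TAATTA.
Gucy1b2, chr14:62456240-62456539, minus strand: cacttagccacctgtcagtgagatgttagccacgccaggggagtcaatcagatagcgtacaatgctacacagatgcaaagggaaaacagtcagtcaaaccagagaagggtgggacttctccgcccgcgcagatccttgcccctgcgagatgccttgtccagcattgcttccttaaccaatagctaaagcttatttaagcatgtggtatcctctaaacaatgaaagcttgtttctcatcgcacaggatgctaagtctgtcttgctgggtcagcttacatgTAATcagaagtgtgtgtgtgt
Emx1, chr6:85187681-85187980, plus strand: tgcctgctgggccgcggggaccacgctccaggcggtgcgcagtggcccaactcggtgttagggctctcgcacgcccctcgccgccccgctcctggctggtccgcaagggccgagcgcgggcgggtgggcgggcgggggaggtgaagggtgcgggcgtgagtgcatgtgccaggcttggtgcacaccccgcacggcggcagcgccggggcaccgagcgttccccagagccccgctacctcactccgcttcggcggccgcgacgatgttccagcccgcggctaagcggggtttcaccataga
Gucy2d, chr7:98440166-98440465, plus strand: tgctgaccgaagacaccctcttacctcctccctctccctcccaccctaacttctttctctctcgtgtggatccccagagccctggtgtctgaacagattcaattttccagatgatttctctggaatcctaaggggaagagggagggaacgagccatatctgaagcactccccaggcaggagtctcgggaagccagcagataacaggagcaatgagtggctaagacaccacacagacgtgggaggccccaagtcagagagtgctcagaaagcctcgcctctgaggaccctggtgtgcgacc
The single TAAT of these 3 windows begins 29 bases past the Gucy1b2 start site, and 58.0% of all 32851 windows of this length hold TAAT on either strand. Neither TAATTA (in 5.29% of all windows) nor CCCNNGGG, the core of the site bound by Ebf factors (in 13.7%), occurs on either strand of any of the 6 windows, which include 2 of Cnga3. The Emx1 window is rich in G and C (74.0%), against 48.0% for Gucy1b2 and 55.7% for Gucy2d.

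Gucy1b2 was confined to very few cells and was abundant in them. At a minimum of 3 UMIs it was found in 6 transgenic and 3 wild-type cells, 9 of 2862 (0.314%, interval 0.144 to 0.596). These 9 cells held 97.0% of the 494 Gucy1b2 UMIs of all kept cells. In the transgenic cells the counts were 77, 75, 39, 39, 22 and 17 UMIs, and in the wild-type cells 98, 91 and 21. No cell lay between 3 and 16 UMIs, while 14 further cells held 1 or 2. A UMI of Gucy1b2 was found in 0 of 128 fibroblast-like cells and in 1 of 176 macrophage or monocyte-like cells (0.568%), with median depths of 10571 and 9904 UMIs.

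Emx1 accompanied Gucy1b2 in all 9 kept cells, while 4 of 6 Gucy1b2 barcodes that failed the filters had 0 Emx1 UMIs. In the kept cells its counts were 21, 14, 27, 7, 10 and 5 UMIs in the transgenic cells, in the order above, and 4, 28 and 15 in the wild-type cells. None of the 1054 mature OSN-like cells with 0 UMIs of Gucy1b2 held even 1 Emx1 UMI (upper limit 0.349%). Emx1 reached 3 UMIs in 13 cells (8 transgenic, 5 wild type), so 69.2% of the Emx1 cells (38.6 to 90.9) had Gucy1b2, against 100% of the Gucy1b2 cells with Emx1 (66.4 to 100). Emx2, the paralog that mature neurons use, was the reverse: it averaged 74.1 CPM in the other mature cells and had 0 UMIs in every Gucy1b2 cell.

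**Figure D1:**
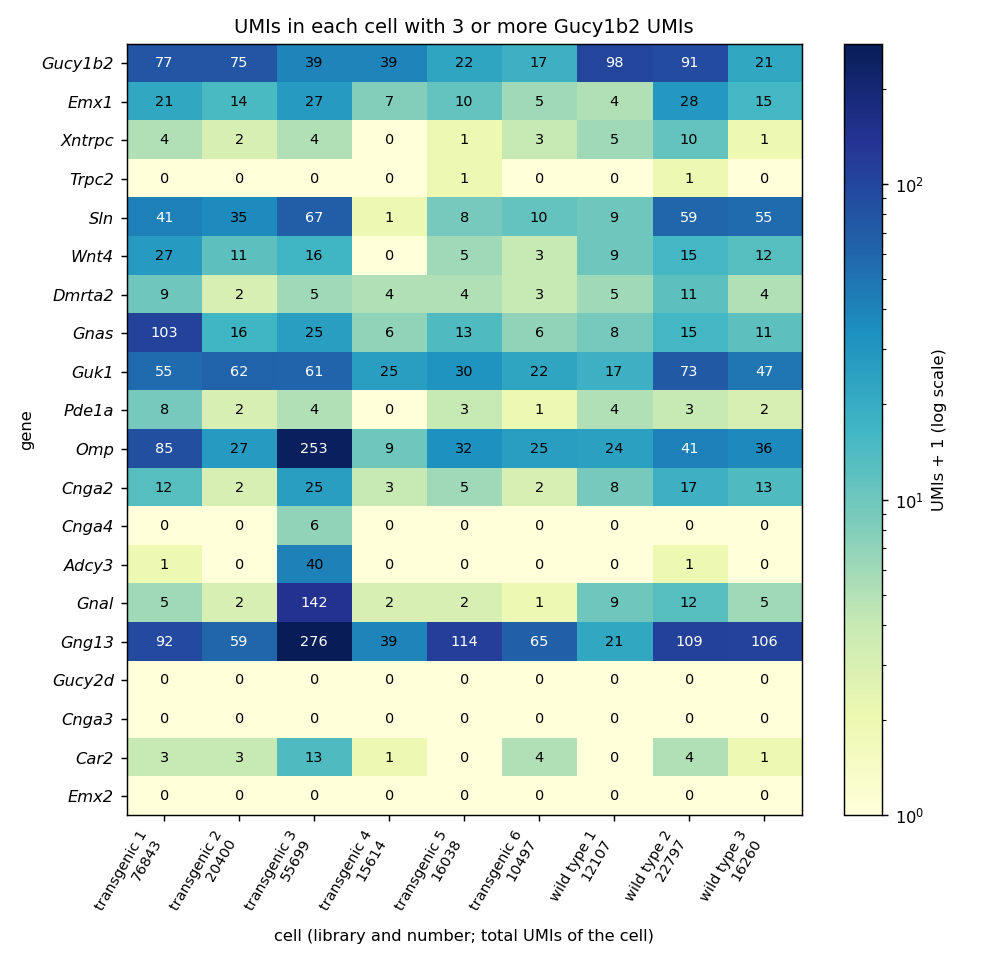
UMIs of 20 genes (rows) in the 9 cells with 3 or more Gucy1b2 UMIs (columns, with the library and the total UMIs of each cell), coloured on a log scale of UMIs + 1. Emx1 is present in every column, Adcy3 and Cnga4 are at most 1 UMI and Gnal at most 12 in all columns but the third transgenic cell, and Gucy2d, Cnga3 and Emx2 are at 0 throughout.

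Trpc2 could hardly be counted under its own name. It had 2 UMIs in all kept cells, 1 in a transgenic and 1 in a wild-type cell, and reached 3 UMIs in none of 2862 cells, which allows a share of up to 0.105% by 3 counts of the total, or 0.129% by the exact interval used for the other limits. Both UMIs lay in Gucy1b2 cells, the fifth transgenic one and the second wild-type one. The feature list also holds Xntrpc, a readthrough gene that joins Trpc2 with its upstream neighbour Xndc1 on the same strand. In GENCODE release M21 (GRCm38), Trpc2 spans chr7:102083116-102096396 on the plus strand, 97.5% of its 2874 exonic bases are also exons of Xntrpc, and none belongs to Trpc2 alone. There Xntrpc ends 468 bases past Trpc2, on the side that a 3′ kit reads. These coordinates are of another build than the one the authors used, and the sources used here do not say how they assigned reads that both genes share.

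Xntrpc followed Gucy1b2. It had 4, 2, 4, 0, 1 and 3 UMIs in the 6 transgenic Gucy1b2 cells and 5, 10 and 1 in the wild-type ones. At least 1 UMI was present in 8 of the 9 (88.9%, interval 51.8 to 99.7) and in 44 of the 1054 mature cells without Gucy1b2 (4.17%). Xndc1, the other gene that shares the locus, was in 3 of the 9 at 1 UMI each and in 14.5% of the 1054. Counted as Trpc2 and Xntrpc together, 8 kept cells reached 3 UMIs and 5 of them were Gucy1b2 cells. The other 3 were wild-type mature OSN-like cells with Xntrpc at 3, 4 and 3 UMIs and an ordinary receptor profile. They were led by Olfr328 (337 UMIs), Olfr305 (10 UMIs) and Olfr681 (124 UMIs), with Omp at 6024, 5832 and 4333 CPM. They also held Gnal (64, 110 and 44 UMIs) and Adcy3 (20, 42 and 11 UMIs) and no Emx1 or Gnas.

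Gucy1b2 cells almost all lacked a counted odorant receptor. Among the 1105 odorant receptor genes, the leading one had at most 1 UMI in 8 of the 9 cells. Only the third transgenic cell had one at 3 UMIs or more, Olfr1507 with 252, a share of 11.1% (0.281 to 48.2). In mature OSN-like cells without Gucy1b2 the share was 72.1% (transgenic) and 93.3% (wild type), with the transgene left out of the receptor list. The transgene feature reached at most 1 UMI, in 2 of the 6 transgenic Gucy1b2 cells, whereas 48.9% of the other transgenic mature cells had it. Trace amine receptors (15 symbols) and Ms4a genes (21 symbols) had 0 UMIs in all 9 cells, and vomeronasal and formyl peptide receptors (356 symbols) had at most 1.

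Omp, the marker of mature olfactory neurons, was present but low. The transgenic cells had 1106, 1324, 4542, 576, 1995 and 2382 CPM, and the wild-type cells 1982, 1798 and 2214. Their median was 1982 CPM, against 5071 in the 1054 mature cells without Gucy1b2, where the 10th and 90th percentiles were 3593 and 6501. The third transgenic cell is the only one of the 9 inside that range. Omp is among the markers by which the mature OSN-like class was named, so the comparison cells were selected in part for high Omp. Among mature cells without Gucy1b2, 173 transgenic and 29 wild-type cells had no counted odorant receptor, with a median Omp of 5092 and 5112 CPM. Of the 173, 140 had the OR1A1 transgene, which is not in the receptor list, at 3 UMIs or more. A trace amine receptor was at 3 or more in 4 of the 173 and 2 of the 29. Most of the 173 transgenic cells thus did carry a receptor. Of the 29 wild-type cells only those 2 had any of the receptors counted here at 3 UMIs.

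**Figure D2:**
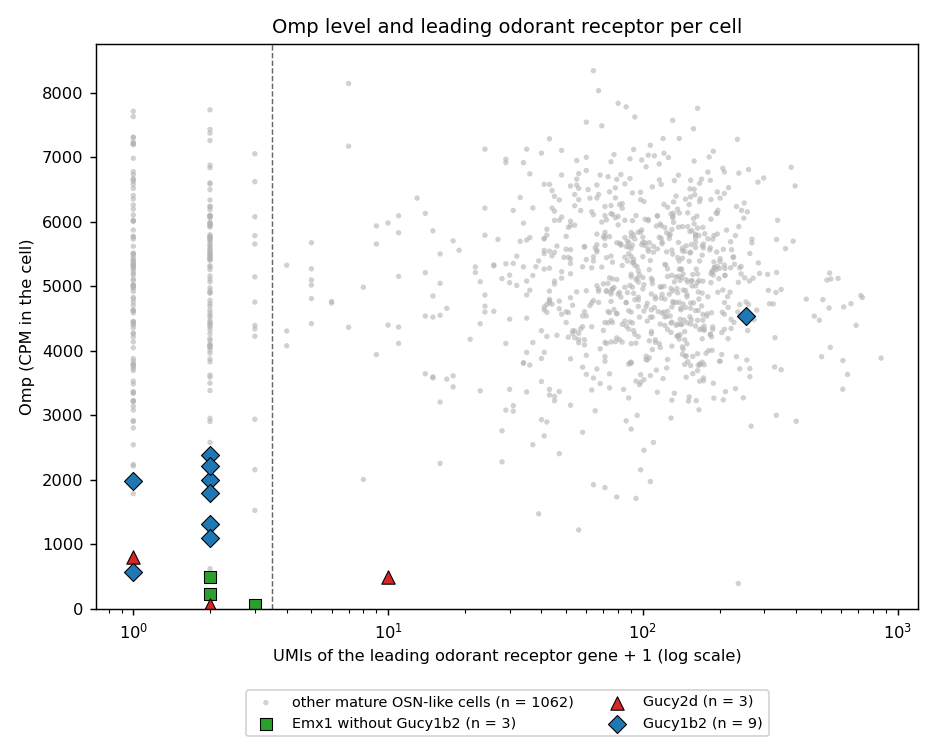
Omp in CPM (vertical) against UMIs of the leading odorant receptor gene + 1 on a log scale (horizontal), 1 point per cell; grey points are the other mature OSN-like cells and the dashed line separates 2 from 3 receptor UMIs, with Emx1 and Gucy2d cells set apart where they lack Gucy1b2. All but 1 of the 9 Gucy1b2 cells lie left of the line at or below 2382 CPM, under most grey points of the same columns.

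Of the 9 cells, 2 carried a second profile. The first transgenic cell (76843 UMIs, sustentacular-like) held 41 UMIs of Cyp2g1, a detoxifying enzyme of sustentacular cells. The third (55699 UMIs, in a cluster led by Calb2) held the only receptor, with Adcy3 at 40 and Gnal at 142 UMIs. Each is deeper than any of the other 7, which ranged from 10497 to 22797 UMIs. The doublet caller marked neither. Removing the 5% of cells with the highest doublet scores left 8 Gucy1b2 cells, and the 1 with a receptor stayed. Beyond these scores, whether each barcode holds 1 cell was not tested. Without them 0 of 7 cells had a receptor and the median Omp was 1982 CPM.

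Part of the cAMP pathway was lower in Gucy1b2 cells than in mature OSN-like cells without Gucy1b2. Mean CPM was compared with that of the 1054 mature cells without Gucy1b2, as log2 after adding 20 CPM, and a gene was called past 2-fold. Of 7526 genes compared, 5.41% were called higher and 4.21% lower. Of 17 transduction genes 0 were higher and 7 lower, with a median log2 difference of -0.71 against 0.04 for all genes. Cnga4, Adcy3, Gnal, Stoml3 and Omp, all among the 7, are markers by which the mature OSN-like class was named. Cnga2, Gng13 and Rtp1 of the list are such markers too. The comparison cells were thus selected in part for high levels of these genes, and the share of this in the differences was not tested. Cnga4 had the most negative difference, -3.67, with UMIs in 1 of 9 cells. Adcy3 (-3.29) was at 86.1 ± 237 CPM (SD over 9 cells) against 1020 ± 485 (SD over 1054 cells), and 40 of its 42 UMIs lay in the third transgenic cell. Gnal had -2.68, with 142 UMIs in the third transgenic cell and 1 to 12 in each of the others, and Ric8b, a chaperone and exchange factor of Gnal, -2.57. Stoml3, a membrane protein of olfactory cilia, had -2.35, Omp -1.33 and Cngb1 -1.14. The 272 immature OSN-like cells without Emx1 were low as well, with mean Adcy3 at 62.4 CPM, Gnal at 558 and Cnga4 at 21.2. Gucy1b2 cells had a mean Gnal of 515 CPM. Mean Omp (409 CPM) and Stoml3 (497) were lower in those immature cells than in Gucy1b2 cells (1991 and 1631). Whether Adcy3, Gnal and Cnga4 set Gucy1b2 cells apart from immature neurons was not tested.

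Other parts of the pathway were within 2-fold. Cnga2 was at 400.4 ± 273 CPM against 633 ± 329, and the G protein gamma subunit Gng13 at 4209 ± 2191 against 5744 ± 2067. Rtp1 and Rtp2, which carry odorant receptors to the membrane, had log2 differences of 0.07 and 0.47 in cells where hardly any receptor was counted. Restricting the set to the 6 Gucy1b2 cells of the mature OSN-like class, or dropping the 2 deepest cells, left 7 of 17 lower and 0 higher, where all genes gave 8.72% and 7.22% lower and 6.53% and 6.02% higher. In both of these sets Adcy3 was at most 1 UMI per cell and Cnga4 at 0. Both genes passed the minimum through the mature cells alone and could enter only as lower.

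Gnas, in contrast, was high where Gnal was low. It encodes the stimulatory G protein alpha subunit of most tissues. It had 103, 16, 25, 6, 13 and 6 UMIs in the transgenic cells and 8, 15 and 11 in the wild-type cells, 704 ± 277 CPM in all. Mature cells without Gucy1b2 averaged 8.66 ± 28.1 CPM, and 10.1% of them had a UMI. Immature OSN-like cells without Emx1 had Gnas more often (82.4%) and averaged 272 CPM, and named non-neuronal cells averaged 911 CPM.

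Of 13 cGMP effectors and phosphodiesterases, 8 had a UMI in the 9 cells and 4 passed the minimum of 20 CPM in either set. Pde1a, Pde1b and Pde11a passed through the Gucy1b2 cells alone and so could enter only as higher, and nothing is read from their number. Pde1a, a calcium-activated phosphodiesterase that cleaves cAMP and cGMP, was at 127 ± 91.2 CPM (8 of 9 cells) against 0.140 in the mature cells without Gucy1b2. Its relative Pde1b was at 38.9 ± 39.6 (6 of 9) against 0.941, and Pde11a, which also cleaves both, at 95.7 (8 of 9) against 0.412. Pde6d, measured in both sets, had a log2 difference of -0.69. Partners for Gucy1b2 were not seen: the alpha subunits Gucy1a1 and Gucy1a2 and the other beta subunit Gucy1b1 had 0 UMIs in all 9 cells. Of 11 guanylate cyclase genes only Gucy1b2 and a trace of Gucy2c (1 cell) were detected there.

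**Figure D3:**
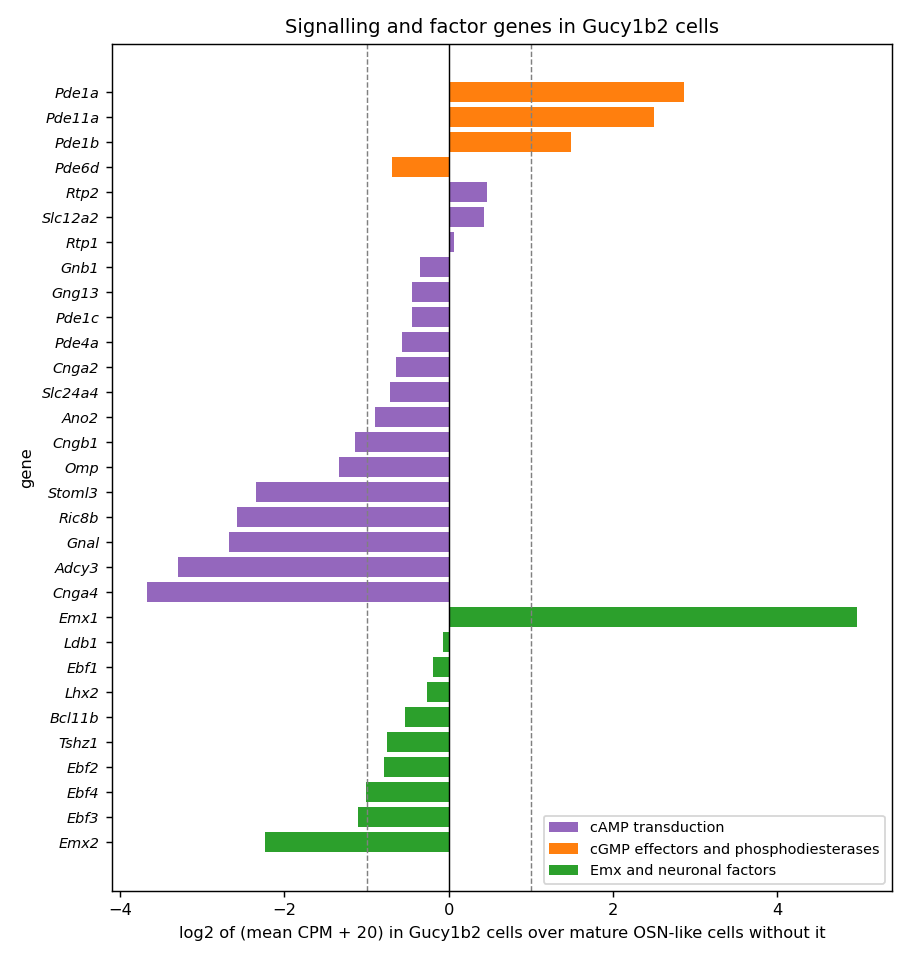
Difference between the 9 Gucy1b2 cells and the 1054 mature OSN-like cells without Gucy1b2 (horizontal, log2 of mean CPM + 20) for the genes of 3 lists abundant enough to compare; dashed lines mark 2-fold. The bars of Cnga4, Adcy3, Gnal, Ric8b and Stoml3 reach below -2, those of Pde1a and Pde11a above 2, and Emx1 and Emx2 point in opposite directions. Pde1a, Pde1b, Pde11a and Emx1 passed the minimum through the Gucy1b2 cells alone and could point only upward. Cnga4 and Emx2 passed it through the mature cells alone and could point only downward.

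Outside the lists, 8 genes were named, chosen as those with the highest log2 difference among genes found in at least 50% of the 9 cells. Sln, a small regulator of the calcium pump, led with 6.01. Its counts were 41, 35, 67, 1, 8 and 10 UMIs in transgenic cells and 9, 59 and 55 in the 3 wild-type cells, and 4 of 1054 other mature cells had any. Gnas followed (4.66), then Wnt4, a secreted Wnt ligand (4.41), and Guk1, the guanylate kinase that returns GMP to the nucleotide pool (4.33). Guk1 averaged 1990.5 ± 889 CPM against 79.6 ± 76.2. Fmn1, an actin-nucleating formin (3.88), Ly6h, a small membrane-anchored protein (3.66), Aqp4, a water channel (3.65), and Dmrta2, a DM-domain transcription factor (3.65), completed the 8. Several of them were common outside mature neurons. Ly6h was in 72.1% of immature OSN-like cells without Emx1 and in 12.5% of the mature cells without Gucy1b2. Guk1 was in 72.4% and 65.9% of these cells, with means of 91.6 and 79.6 CPM. Among named non-neuronal cells Wnt4 was in 21.4%, Aqp4 in 25.3%, Dmrta2 in 27.1%, Fmn1 in 12.1% and Sln in 0.318%. The fourth transgenic cell, which had the lowest Omp, also had the least Sln (1 UMI) and no Wnt4, Xntrpc or Pde1a.

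Of the 10 genes in the list of Emx and neuronal factors, Emx2 (-2.23), Ebf3 (-1.11) and Ebf4 were past 2-fold lower and Emx1 higher. Over all 7526 genes 4.21% were lower and 5.41% higher. Emx1 had 0 UMIs in the 1054 comparison cells, so it could enter only as higher and nothing is read from its call. Emx2 had 0 UMIs in all 9 Gucy1b2 cells, so it could enter only as lower and nothing is read from its call either. Lhx2 and Ebf1, factors shared by olfactory neurons, stayed near the level of the other cells (-0.26 and -0.20). Gap43, a growth protein of immature neurons, reached 3 UMIs in 1 of the 9, and in the 6 cells of the mature class it was at most 1 UMI.

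Across the 38 pairs of class and library with at least 10 cells, the genes whose level varied most like Gucy1b2 among 15944 candidates were Sln (Pearson r = 0.97 over 38 pairs), Olfr1416 (0.97) and Olfr17 (0.92). For Emx1 they were Resp18 (0.91), Gm15351 (0.86) and Svop (0.85). Pairs share libraries and the correlations rest on few cells with the gene, so they are descriptions only. Trpc2, Gucy2d and Cnga3 had fewer than 50 UMIs and were not compared.

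Emx1 without Gucy1b2 was found in 4 cells, 3 of them immature OSN-like. The transgenic one (14483 UMIs) held 5 Emx1 UMIs with Gap43 at 22, and the wild-type ones 21 and 7 Emx1 UMIs with Gap43 at 21 and 94. Their Omp was low, at 69.0 CPM in the first and 493 and 233 CPM in the others, and no receptor exceeded 2 UMIs. All 4 cells had Gnas, Dmrta2 and Lmo1, a LIM-only transcription cofactor, and none had Sln. In the 3 immature cells Lmo1 had 28, 7 and 21 UMIs and Dmrta2 19, 12 and 8. Among 272 immature OSN-like cells without Emx1, Lmo1 was in 27.2% and Dmrta2 in 5.88%. Gnas, Lmo1 and Dmrta2 were named as leading genes of the whole Emx1 set, which includes these 4 cells. Their presence here is therefore a description and no separate support. The fourth cell, a transgenic sustentacular-like barcode, is a Gucy2d cell described next.

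With 9 of 13 cells in common, the leading genes of the Emx1 set largely repeated those of Gucy1b2: Sln (5.49), Gnas (4.79), Lmo1 (4.24), Dmrta2 (4.10), Guk1 (4.07), Wnt4, Ly6h (3.76) and Tubb2b (3.74). Against mature cells without Emx1, 6.95% of 7679 genes were past 2-fold higher and 3.29% lower. The cAMP list gave 9 of 17 lower and 0 higher. Cnga4, with UMIs in 1 of the 13 cells, passed the minimum through the mature cells alone and could enter only as lower. Several genes of this list also served to name the mature OSN-like class, as given above. Tubb2b, a tubulin of young neurons, came from the 4 cells without Gucy1b2, which all had it, and only 1 of the 9 Gucy1b2 cells reached 3 UMIs.

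Gucy2d cells were fewer still. It reached 3 UMIs in 3 cells, 2 transgenic and 1 wild type (0.105%, interval 0.0216 to 0.306), and all 21 Gucy2d UMIs of kept cells lay in 4 cells. The wild-type cell (11089 UMIs, in an immature OSN-like cluster) held 0 UMIs of Cyp2g1. It had 8 UMIs of Gucy2d, 183 of Car2, 1 of Cnga3 and 0 of Pde2a, the cGMP-stimulated phosphodiesterase known from these neurons, with Omp at 812 CPM, no Gap43 beyond 1 UMI and 0 UMIs of Gnal, Adcy3 and any odorant receptor. One transgenic cell (96134 UMIs) held Gucy2d at 4, Car2 at 968, Cnga3 at 3, Emx1 at 6 and Pde2a at 5 UMIs. It was sustentacular-like by cluster, with Cyp2g1 at 172 UMIs, and held Olfr571 at 9. The other transgenic cell (113425 UMIs) held Gucy2d at 7, Car2 at 23 and Pde2a at 1 with Cyp2g1 at 421 and Omp at 61.7 CPM. Both are among very deep sustentacular-like barcodes, and what share of their UMIs came from a second cell was not tested.

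Cnga3 had 4 UMIs in all kept cells, 3 and 1 in the transgenic cell with Car2 at 968 and in the wild-type Gucy2d cell. Each Cnga3 UMI therefore lay in a Gucy2d cell, and the transgenic one also had Emx1. No Gucy2d cell had a UMI of Gucy1b2, and no Gucy1b2 cell had one of Gucy2d or Cnga3 (upper limit 33.6% of 9 cells). All 3 Gucy2d cells had Car2 at 3 UMIs or more, as did 12.5% of mature OSN-like cells. None of the 3 is mature OSN-like. The 2 transgenic ones, at 96134 and 113425 UMIs, are far deeper than the mature cells, with a median of 13213. Ms4a genes, reported as receptors of GC-D neurons, had 0 UMIs in the 3 cells.

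Car2 was the most widespread of the 6 genes and was found in neurons and other cells alike. It reached 3 UMIs in 262 cells (163 transgenic, 99 wild type; 9.15%), and 937 cells had at least 1. Both libraries together, its level was 4254 CPM in erythroid-like cells, where red cell precursors use it, 699 CPM in an unnamed cluster led by Fabp7 that mixes glial and hemoglobin genes, and 221 CPM in sustentacular-like cells. The sustentacular value rests on 1 cell: 968 of its 1060 UMIs lie in the Gucy2d cell above. Likewise 183 of the 211 wild-type immature OSN-like UMIs lie in the wild-type Gucy2d cell. A cluster led by Bpifb3 had 180 CPM, mature OSN-like cells 76.4 (71.9 to 81.0) and endothelial-like cells 55.5 (46.7 to 65.5).

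Below these the levels ran down without a gap. T or NK cell-like cells had 29.7 CPM (9.64 to 69.3), a cluster led by Obp1a 24.1 (17.6 to 32.1), tuft-type microvillar-like cells 17.1 (7.84 to 32.5) and ionocyte-type microvillar-like cells 9.70 (4.65 to 17.8), and each interval overlaps the next. Among the lowest were 4.04 CPM in fibroblast-like, 3.27 in macrophage or monocyte-like and 2.12 in INP-like cells, the immediate neuronal precursors. The last 3 intervals overlap one another (1.48 to 8.79, 1.20 to 7.11 and 0.437 to 6.19). All 3 lie under the free RNA level of 42.9 and 51.6 CPM, as do transgenic immature OSN-like cells. By cells, a Car2 UMI was in 54.3% of mature OSN-like, 4.69% of fibroblast-like and 3.41% of macrophage or monocyte-like cells, at median depths of 13213, 10571 and 9904 UMIs. The leading genes of the 262 cells were the hemoglobin gene Hbb-bs (7.89), the secretoglobin Scgb1c1 (6.83), Gpx1 (3.75) and Gnas (3.52). Hbb-bs and Scgb1c1 UMIs were also in 61.7% and 70.7% of the mature cells without Car2. The 262 cells mix classes, and of 7392 genes 7.4% were past 2-fold higher and 0.244% lower.

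**Figure D4:**
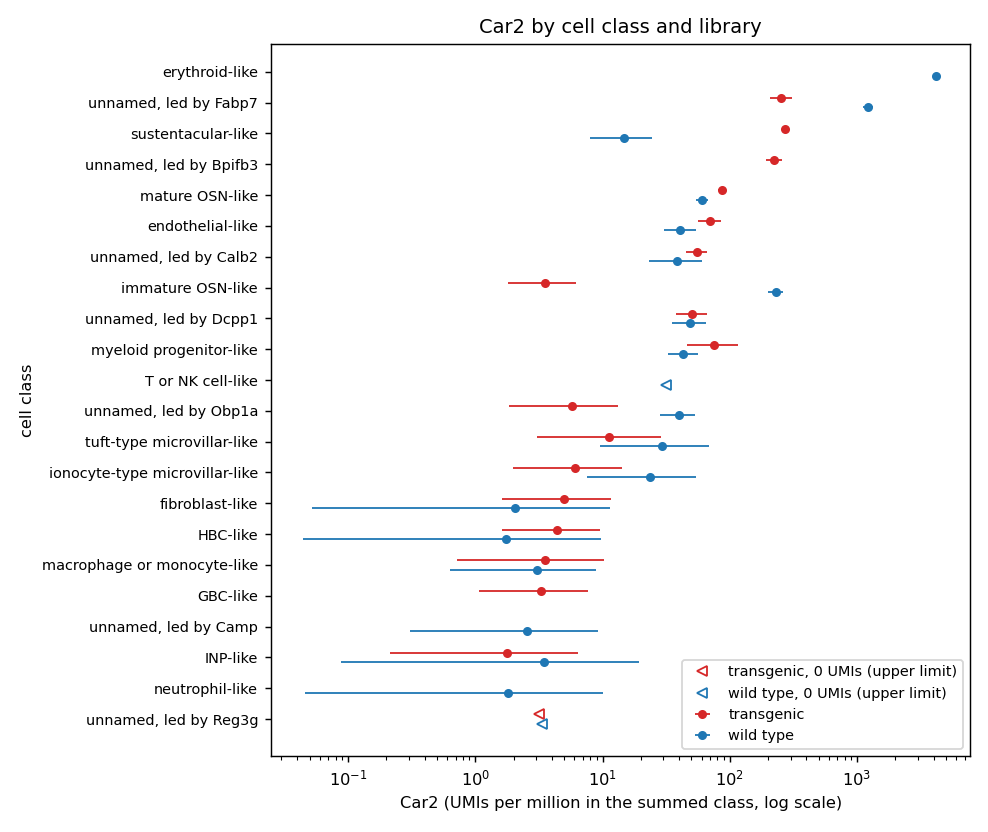
Car2 in CPM from the UMIs summed over each class (horizontal, log scale) for the transgenic (red) and wild-type (blue) library, with exact Poisson 95% intervals; classes with at least 10 cells in that library are drawn, ordered by their level in both libraries, and open triangles mark the upper limit where 0 UMIs were counted. Erythroid-like cells lie highest, and the transgenic sustentacular-like and wild-type immature OSN-like points each rest on 1 cell.

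In mature neurons Car2 was low and spread over many cells. It reached 3 UMIs in 133 of 1068 cells, with a maximum of 9. The library sums were 758 UMIs (86.7 CPM) in 630 transgenic and 334 UMIs (60.1 CPM) in 438 wild-type cells, a log2 ratio of 0.53 (0.34 to 0.72). This is under 2-fold, where 1.58% of 7033 measured genes were past 2-fold higher in transgenic cells and 3.34% in wild-type cells. The difference had the same direction in each of the 3 mature clusters: 19.6% of transgenic against 7.78% of wild-type cells had 3 UMIs in the cluster led by B830017H08Rik, 14.4% against 6.80% in that led by Dlg2, and 16.0% against 7.69% in that led by Pth2. Median depth was 13826 and 12431 UMIs in these cells, and the part of depth in these shares was not tested.

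In mature cells with Car2 the mean levels of Nfix, Nfib and Ncam2 were higher and those of Nqo1, Acsm4 and Tshz1 lower in both libraries, by less than the spread over cells. The 133 cells with 3 UMIs were set against the 488 mature cells with none, in each library; these genes were chosen after their values were seen. Nfix, a nuclear factor I gene, was at 455 ± 410.5 against 299.8 ± 378 CPM in the transgenic library (101 and 258 cells) and at 510 ± 363 against 276 ± 339 in the wild type (32 and 230 cells). Nfib was at 195 against 131 and at 258 against 135 CPM, and Ncam2, an adhesion molecule of ventral and lateral olfactory neurons, at 133 against 87.0 and at 178 against 78.0. Nqo1, an enzyme of dorsal neurons, was at 168 against 429 and at 349 against 879 CPM, Acsm4, another dorsal enzyme, at 230.5 against 305 and at 107 against 301, and Tshz1 at 115 against 222 and at 181 against 304. Nfia was at 23.2 against 17.2 and at 55.4 against 40.4. For each of these 7 genes the SD over cells was larger than the difference in both libraries. This SD describes the spread of single cells and not the error of the means, and the differences were not tested. A counted odorant receptor was in 78.2% of the cells with Car2 against 70.2% of those without in the transgenic library, and in 90.6% against 93.9% in the wild type. The transgene was at 3 UMIs or more in 20.8% against 32.6% of the transgenic cells. Cells with Car2 were deeper, with a median of 15443 against 12871.5 UMIs (transgenic) and 14458.5 against 11359.5 (wild type). The part of depth in these shares was not tested. Median Omp was 5136 against 4840 CPM (transgenic) and 4820 against 5101 CPM (wild type), so receptor share and Omp each differed in opposite directions in the 2 libraries. Of 6767 genes, 0.0591% were past 2-fold higher, among them Car2 itself, which defines the cells, and 0.0591% were lower.

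Gucy1b2 was the other member measurable in both mature pools, at 122 transgenic and 211 wild-type UMIs (14.0 and 37.9 CPM). The log2 ratio of -1.44 (-1.78 to -1.11) is past 2-fold but comes from 3 cells in each library, so that it sets 3 cells against 3. At a clustering resolution of 2 it turned to 3.94, since the wild-type cells left the mature class. Emx1, with 29 and 47 UMIs, missed the minimum of 50 UMIs, and Gucy2d and Cnga3 had 0 UMIs in mature OSN-like cells of either library. By cell number the libraries were close, with 6 of 1745 against 3 of 1117 kept cells for Gucy1b2 (0.344%, interval 0.126 to 0.747, and 0.269%, 0.0554 to 0.783). For Emx1 they were 0.458% (0.198 to 0.901) and 0.448% (0.145 to 1.04).

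Outside the neuronal lineage only Car2 was common. Of 943 named non-neuronal cells, 57 had 3 UMIs of Car2 (6.04%, interval 4.61 to 7.76). Gucy1b2 and Cnga3 had 1 such cell each (0.106%), Emx1 and Gucy2d 2 each (0.212%) and Trpc2 none (upper limit 0.390%). Every one of these few cells was sustentacular-like and is described above. The only other Gucy2d UMIs were 2 in 1 transgenic endothelial-like cell.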

How the data were processed

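Droplet libraries of olfactory epithelium, 1 transgenic and 1 wild type, were read as raw UMI counts per gene and barcode, which the authors deposited with empty barcodes included. The matrices were made with Cell Ranger 6.1.1 on GRCm39 (mm39), per the submitters' processing notes, while a software tag of Cell Ranger 4 stands in the matrix, per the file headers. The libraries hold 70572741 and 55701219 UMIs. The 2862 kept cells limit a share of 0 to 0.105% (3 counts of the total) or 0.129% (exact interval).

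Barcodes were kept from 5828 (transgenic) and 5318 (wild type) UMIs, which is 10% of the 99th percentile among the 5000 deepest barcodes, with 1000 as the least allowed, at 500 genes or more and at no more than 10% mitochondrial UMIs; cells marked by Scrublet were removed. Scrublet marked 0.229% and 0.179% of cells, so most doublets may remain. Counts were scaled to 10000 per cell and clustered with scanpy 1.11.5 (2000 variable genes, 30 components, 15 neighbours, Leiden resolution 1), leaving out the 6 genes, receptor genes, Xntrpc and Xndc1. A cluster was named where a marker list exceeded other clusters by a log2 of 1, at least 3 markers were past 2-fold and no other class came within 1. Shares have exact Clopper-Pearson intervals, levels exact Poisson intervals and library ratios conditional binomial intervals; 1 UMI was added to each sum in a ratio. Genes were compared between cell sets where the mean was at least 20 CPM in either set, and between libraries with 50 UMIs besides.

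The genes named are the 6, the members of fixed signalling lists, the 8 leading genes of each set of at least 4 cells and the 3 genes of most similar level. The 6 genes and the lists were chosen with earlier results of these data known. The calculations were tested on simulated data. Alternatives were other UMI minima, mitochondrial limits, detection limits, thinning to 5000 UMIs, doublet removal, clustering resolutions and added counts. Sequences came from RefSeq (GRCm38.p6).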

Additional observations from a re-analysis of the deposited data

Results flagged for a closer look

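Barcodes of at least 500 UMIs that failed the filters were outside every comparison above, and some held these genes at 3 UMIs or more. Gucy1b2 reached 3 UMIs in 6 of them, at 10, 9 and 4 UMIs in transgenic and 26, 7 and 4 in wild-type barcodes. None of the 6 had an odorant receptor above 1 UMI, and their mitochondrial shares ran from 12.6% to 37.9%, above the limit of 10%. The wild-type barcode with 26 also held Sln (10 UMIs), Dmrta2 (6), Xntrpc (4) and Omp (9). Emx1 was at 0 UMIs in 4 of the 6, all 3 transgenic ones and the wild-type one with 26, and at 3 and 1 in the others, in barcodes of 1732 to 7538 UMIs.

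Emx1 did so in 4 wild-type barcodes, with 4, 4, 3 and 3 UMIs, of which 1 is also the Gucy1b2 barcode with 7. Of these, 1 had 16008 UMIs and failed only on a mitochondrial share of 10.7%. It carried Car2 at 364, Emx1 at 4, Gucy2d at 1, Gnas at 19 and Omp at 30 UMIs, with 0 UMIs of Gnal, Adcy3 and odorant receptors.

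Gucy2d did so in 1 transgenic barcode of 5448 UMIs, with Gucy2d at 10, Car2 at 19 and Pde2a at 2 UMIs and the odorant receptor Olfr324 at 3, which missed the UMI minimum of 5828. Xntrpc did so in 2 barcodes, 1 of each library, at 5 and 4 UMIs, and both are Gucy1b2 barcodes. Free RNA held 4.67 CPM of Gucy1b2 or less and 3.03 CPM of Emx1 or less.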

How the results depend on the processing

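The number of Gucy1b2 cells was 9 or 10 with a UMI minimum of 500 or a mitochondrial limit of 20%, and Emx1 stayed in 9 of them. Removing the 5% of cells with the highest doublet scores in each library left 8 Gucy1b2, 12 Emx1 and 2 Gucy2d cells. Counting 1 UMI gave 23 cells with Gucy1b2, 2 with Trpc2, 937 with Car2, 2 with Cnga3 and 25 with Emx1, and pairs of 2 cells each for Gucy1b2 with Trpc2 and Gucy2d with Cnga3. Counting 2 UMIs gave 465 Car2 cells, and 5 UMIs gave 103 Car2 and 0 Cnga3 cells. Thinning every cell to 5000 UMIs left 58 Car2, 6 Emx1, 0 Gucy2d and 0 Cnga3 cells, 5 with Gucy1b2 and Emx1, and 0 pairs of Gucy2d with Car2 or Cnga3, since fewer UMIs are counted. An odorant receptor at 1 UMI was in 7 Gucy1b2 and 11 Emx1 cells, and at 10 UMIs in 1 Emx1 cell. Car2 was in 15.3% of named non-neuronal cells at 1 UMI and in 2.44% after thinning.

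At Leiden resolution 2 the transgenic over wild type log2 ratio in mature OSN-like cells turned to 3.94 for Gucy1b2 and 3.44 for Emx1. There 4 of the 9 Gucy1b2 cells, all 3 wild-type ones among them, fell in a cluster of 50 cells named erythroid-like, although Hba-a1 is at most 2 UMIs in each of the 9. These ratios therefore carry no direction.

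Some alternatives were chosen after seeing the data. Trpc2 and Xntrpc summed gave 8 cells and 5 together with Gucy1b2. Without cells over 50000 UMIs, or in the mature OSN-like class alone, 0 Gucy1b2 and 0 Emx1 cells had a receptor. No paired analysis was possible because each group is 1 library with no replicate numbers. The intervals are wide for 9 and 3 cells, and the Gucy1b2 count stayed at 9 after thinning. Trpc2 itself cannot be judged from 2 UMIs.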
